A study of Sus scrofa with 9 samples.

Results

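Matrix metalloproteinase (MMP) and tissue inhibitor of metalloproteinase (TIMP) transcripts were followed in the additional molar germs of Wuzhishan miniature pigs. All probe sets annotated on the platform with the single symbol MMP1, MMP2, MMP3, MMP7, MMP9, MMP14, TIMP1, TIMP2, TIMP3 or TIMP4 were taken. These were 17 of the 23999 probe sets tested, 9 for the 6 MMP genes and 8 for the 4 TIMP genes. RNA from mandibular germs, dissected with the dental lamina still attached, was hybridised to Affymetrix Porcine Genome Arrays, 3 for each of 3 embryonic days. The E50 germs held a cap stage first molar (M1) and no second molar (M2). A bell stage M1 and a newly starting M2 were present at E60. The E70 germs, the reference stage, had reached late bell in M1, while M2 was little advanced. Germs of a litter were pooled within a stage, so p-values measure the spread between these arrays, which may be technical. In such bulk RNA, fewer cells of a type and less RNA per cell cannot be told apart.

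MMPs are zinc-dependent proteases that cut collagens, proteoglycans, basement membrane and other extracellular proteins, and most are made as inactive proenzymes. TIMPs bind active MMPs and block them, and TIMP2 also takes part, with the membrane-anchored MMP14, in the cell surface activation of pro-MMP2. In developing teeth these enzymes and inhibitors are known for remodelling the matrix between the dental epithelium and the ectomesenchyme.

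The E50 arrays stood apart from the others in several technical readings. Their 3' to 5' signal ratio for EF1A was 49.3 to 55.8, against 1.42 to 1.56 at E60 and 1.35 to 1.47 at E70. In stage order, the GAPDH ratio was 29.7 to 42.2, 6.98 to 9.24 and 4.36 to 6.47. Beta-actin gave 165 to 2308, then 30.1 to 34.9, then 22.9 to 26.3. For GAPDH and beta-actin every E60 array thus exceeded every E70 array, and the bearing of this on the step between them was not tested. Hybridisation spike-ins of the E50 arrays had a geometric mean signal of 58370 to 66123, against 4150 to 4268 at E60 and 3086 to 3938 at E70. Arrays of E50 correlated with each other at r = 0.605 to 0.683 across probe sets, and those of the later stages at 0.901 to 0.921. Background, the 95th percentile of 23 foreign control probe sets on an array, lay at 77.7 to 379 on the E50 arrays, 37.9 to 54.4 on those of E60 and 38.1 to 55.8 on those of E70. The E50 stage and these array properties cannot be told apart in any comparison with E50, and both comparisons with E50 share its 3 arrays.

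Among the 17 probe sets (13 S1 and 4 A1, the orientation given in their names), 4 lay above background on every E50 array, 8 on every E60 array and 7 on every E70 array. Of all probe sets, 35.0%, 66.6% and 67.0% did so. MMP2, TIMP1 and both TIMP2 probe sets were above background on all 9 arrays, and MMP1, MMP14 and the brighter TIMP3 S1 probe set joined them on all 6 later arrays. The signals printed below are MAS5 signals on a linear scale, which can be compared between arrays for 1 probe set and not between probe sets.

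**Figure D1:**
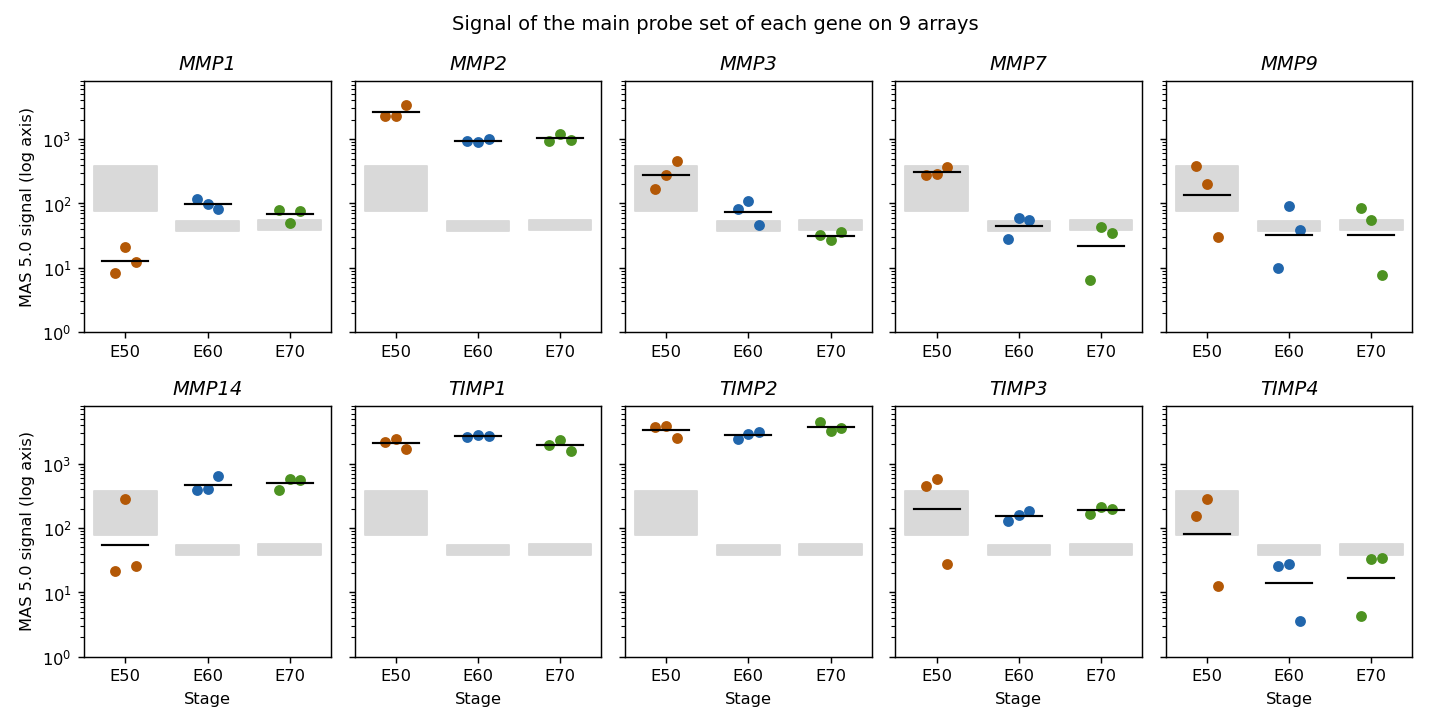
MAS5 signal (log axis) of the brightest probe set of each gene, by stage; points are arrays, black lines geometric means of 3 arrays, and grey bands the range of array backgrounds in the stage. MMP2, TIMP1 and TIMP2 lie above the bands at every stage, MMP1 is under the band at E50 and above the background of each array later, and TIMP4 is under the bands at E60 and E70.

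Over the 3 stages, the moderated F test of limma called MMP1, MMP2, MMP7 and 1 MMP3 probe set, 4 of the 17 at an adjusted p under 0.05, beside 17.7% of all probe sets. From E50 to E60, MMP1 was called higher, beside 7.85% of all probe sets, and MMP2, MMP3 and MMP7 were called lower, beside 10.6% of all. No member was called from E60 to E70, where 0.0833% of all probe sets were called higher and 0.338% lower; at an unadjusted p under 0.05 there was 1, an MMP3 probe set. From E50 to E70, 2 members were called higher and 4 lower, beside 8.16% and 10.6% of all probe sets. The median log2 change over the 17 was -0.86 from E50 to E60 and -0.36 from E60 to E70, and over all probe sets it was -0.18 and 0.05. The test of a difference between the steps called 0 members by limma, with 3 at an unadjusted p under 0.05, beside 1.99% of all probe sets called.

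**Figure D2:**
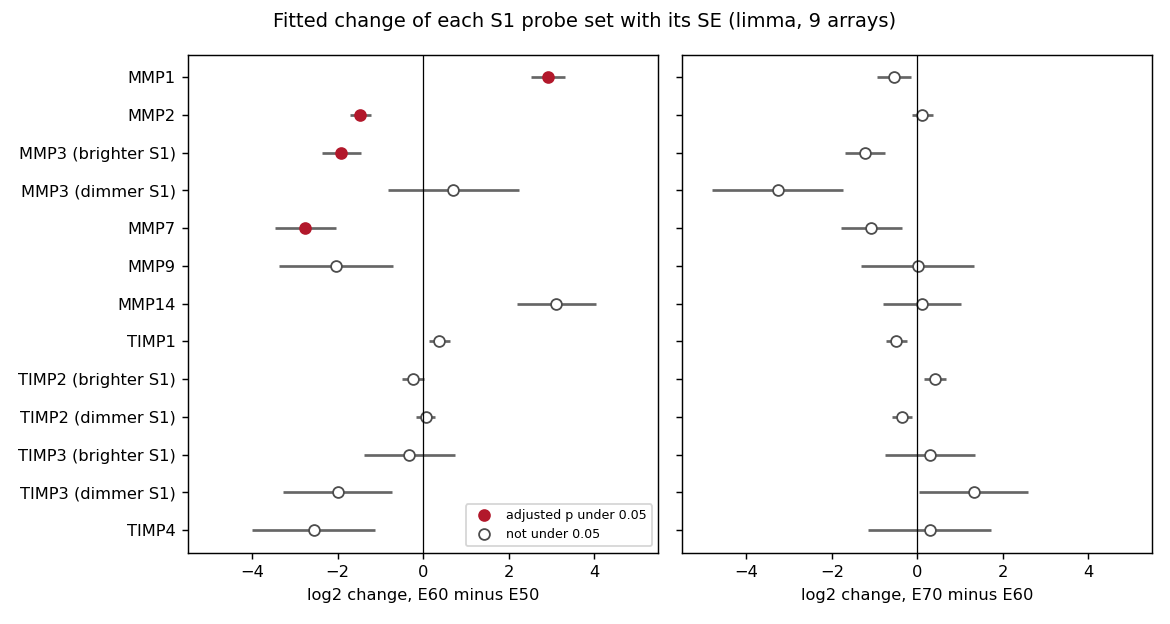
Fitted log2 change of each S1 probe set from E50 to E60 (left) and from E60 to E70 (right), with bars of 1 SE from the limma fit of 9 arrays; filled points have an adjusted p under 0.05. The called changes, 1 rise and 3 falls, are all in the first step.

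MMP2, gelatinase A, which digests denatured collagen and basement membrane type IV collagen, was lower after the cap stage. Its signals were 2282, 2317 and 3424 on the E50 arrays, 943, 908 and 989 at E60, and 937, 1195 and 962 at E70. Every E50 array was above every later array, and the E60 and E70 arrays overlapped. MMP2 fell by 1.47 on the log2 scale from E50 to E60 (SE 0.25, 2.77-fold, limma adjusted p = 0.00913) and was 2.56-fold lower at E70 than at E50 (adjusted p = 0.0104). Between E60 and E70 the change was 0.12, with a 95% interval of -0.46 to 0.69. Its size in the first step depended on scaling: with arrays centred on their medians, which lifted the median change of all probe sets from -0.18 to 0.60, the MMP2 change was -0.70 (adjusted p = 0.0577).

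MMP9, gelatinase B, an enzyme of osteoclasts, neutrophils and macrophages, gave weak and scattered signals. Its values were 389, 204 and 30.3 at E50, 9.93, 91.8 and 38.02 at E60, and 83.6, 54.99 and 7.60 at E70. It exceeded background on 2, 1 and 2 arrays of these stages, and the stages overlapped. The fitted changes were -2.04 from E50 to E60 (SE 1.33, limma adjusted p = 0.317) and -2.03 from E50 to E70 (adjusted p = 0.318), with 95% intervals of -5.14 to 1.06 and -5.13 to 1.06. Neither a change nor constancy of MMP9 could be read at this signal.

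MMP14, the membrane-type enzyme that activates pro-MMP2 and cleaves fibrillar collagen at the cell surface, was higher at the bell stages. Its signals were 21.6, 283 and 25.8 at E50, 392, 407 and 639 at E60, and 396, 584 and 554 at E70. All 6 later arrays were above all 3 E50 arrays, on 2 of which MMP14 lay below background. From E50 to E70 it rose by 3.22 on the log2 scale (SE 0.92, limma adjusted p = 0.0485), and from E50 to E60 the value was 3.11 with an adjusted p of 0.0541. E50 array 2 carried most of the spread: without it the first change was 4.31 (adjusted p = 0.00107), and the call from E50 to E70 was absent when any other array was left out. Between E60 and E70 the change was 0.11, with a 95% interval of -2.04 to 2.26.

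MMP1, interstitial collagenase, which cuts fibrillar collagens, was below background on every E50 array and above it on every later array. Its signals were 8.19, 21.2 and 12.5 at E50, 117, 99.1 and 81.1 at E60, and 79.6, 50.04 and 77.6 at E70. No E50 array reached the later ones, and all E60 arrays were above all E70 arrays. The MMP1 signal rose by 2.92 on the log2 scale from E50 to E60 (SE 0.40, limma adjusted p = 0.00463), and the change from E50 to E70 was 2.39 (adjusted p = 0.00755). These values are no folds of transcript, since the mean background of the E50 arrays, 194, was above the E60 mean of 98.1. A rise of the transcript cannot be read from them either, because a signal at the E60 mean would not have exceeded that mean background. The change from E60 to E70 was -0.54 (95% interval -1.46 to 0.39, adjusted p = 0.928). The difference between its steps was -3.46 (adjusted p = 0.0531).

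MMP3, stromelysin-1, which cuts proteoglycans, fibronectin and laminin and activates other pro-MMPs, was read by 4 probe sets from 2 sequence records. The brighter S1 probe set gave 166, 282 and 463 at E50, 81.0, 109.7 and 45.5 at E60, and 32.8, 27.0 and 35.9 at E70, so the stages did not overlap and the order was E50, E60, E70 from high to low. It fell by 1.91 from E50 to E60 (SE 0.46, limma adjusted p = 0.0289) and by 3.14 from E50 to E70 (adjusted p = 0.00489). The second size cannot be read as a fold since no E70 array exceeded background. Nor can the first, since only 2 arrays at E50 and 2 at E60 exceeded background. Mean background itself went from 194 at E50 to 47.7 at E60. The change of -1.22 from E60 to E70 had a limma adjusted p of 0.551. The call from E50 to E60 held in 8 of 17 alternatives and was lost with median centring (-1.14, adjusted p = 0.0917) and quantile normalization (adjusted p = 0.145). The dimmer S1 probe set gave 313, 334 and 9.42 at E50, 201, 134 and 159 at E60, and 3.33, 31.5 and 46.0 at E70. Its fitted value from E50 to E60 was 0.71, opposite in sign to the brighter one, with an SE of 1.53 (adjusted p = 0.776), and the sign rested on E50 array 3: without that array it was -0.99. Both S1 probe sets were at or below background on all E70 arrays. The dimmer one was above background on all E60 arrays. Taken against the mean background of the E70 arrays, its own signal was at least 3.47-fold lower at E70 than at E60, without a call (limma adjusted p = 0.708). That mean was 46.7, and the E70 backgrounds ran from 38.1 to 55.8, so this is no minimum against each array. The brighter one exceeded background on 2 E60 arrays and gave no such bound. The A1 probe sets, built in the opposite orientation on the same records, were above background on no more than 2 arrays of a stage.

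MMP7, matrilysin, a small epithelial MMP, was highest at E50. Its signals were 272, 289.6 and 368 at E50, 28.3, 59.4 and 55.4 at E60, and 6.55, 43.7 and 34.8 at E70. The E50 arrays were above all others, while E60 and E70 overlapped near background, which MMP7 exceeded on 2, 2 and 1 arrays of the stages. It fell by 2.76 from E50 to E60 (SE 0.71, limma adjusted p = 0.0356) and by 3.83 from E50 to E70 (adjusted p = 0.0111). The E50 signals lay within the range of the E50 array backgrounds, 77.7 to 379, and the later ones near their own background. Mean background itself went from 194 at E50 to 47.7 at E60, so neither size can be read as a fold of transcript. The call from E50 to E60 was lost with median centring (-1.99, adjusted p = 0.0739) and when any E50 or E60 array or E70 array 3 was left out (adjusted p of 0.0519 to 0.118).

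Among the inhibitors, TIMP1, a broad and inducible MMP inhibitor, stayed bright throughout. It gave 2184, 2444 and 1705 at E50, 2606, 2783 and 2739 at E60, and 1954, 2319 and 1571 at E70. The E60 arrays were the highest and overlapped neither other stage. Neither change passed the test: 0.38 from E50 to E60 (95% interval -0.20 to 0.95, limma adjusted p = 0.323) and -0.49 from E60 to E70 (95% interval -1.07 to 0.08, adjusted p = 0.755). Scaling mattered for the first: with median centring it was 1.15 (adjusted p = 0.0352).

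TIMP2, the partner of MMP14 in pro-MMP2 activation, was read by 2 probe sets, both above background on every array. The brighter one gave 3695, 3834 and 2553 at E50, 2454, 2916 and 3102 at E60, and 4503, 3254 and 3578 at E70. The dimmer one gave 1079, 949 and 1032 at E50, 1084, 948 and 1156 at E60, and 979.6, 676 and 852 at E70. From E60 to E70 they moved apart: the brighter one was higher on every E70 array, with a value of 0.41 (limma adjusted p = 0.874), and the other had -0.36 (adjusted p = 0.877). From E50 to E60 the values were -0.23 (95% interval -0.85 to 0.38) and 0.06 (-0.48 to 0.59), so no change of TIMP2 passed the test in either probe set.

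TIMP3, the inhibitor that is held in the matrix, gave 457, 589.9 and 27.6 at E50, 129.6, 159 and 184 at E60, and 168, 214 and 195 at E70 on its brighter S1 probe set. The later stages lay close together, with a change of 0.30 between them (95% interval -2.17 to 2.77), and E50 array 3 was far below the other E50 arrays. With all arrays the value from E50 to E60 was -0.33 (limma adjusted p = 0.854), and without E50 array 3 it was -1.74 (adjusted p = 0.0058). The dimmer S1 probe set overlapped between all stages, with ranges of 25.9 to 507, 5.86 to 75.6 and 46.0 to 112 in stage order. The A1 probe set was called lower at E70 than at E50 (-2.59, adjusted p = 0.0257), but it lay below background on all 9 arrays, and no fold is given for it. TIMP4, the inhibitor best known from heart and brain, had an S1 probe set above background on 1 array, at E50, where it ranged from 12.4 to 282, and its A1 probe set did not exceed 24.8 on any array.

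**Figure D3:**
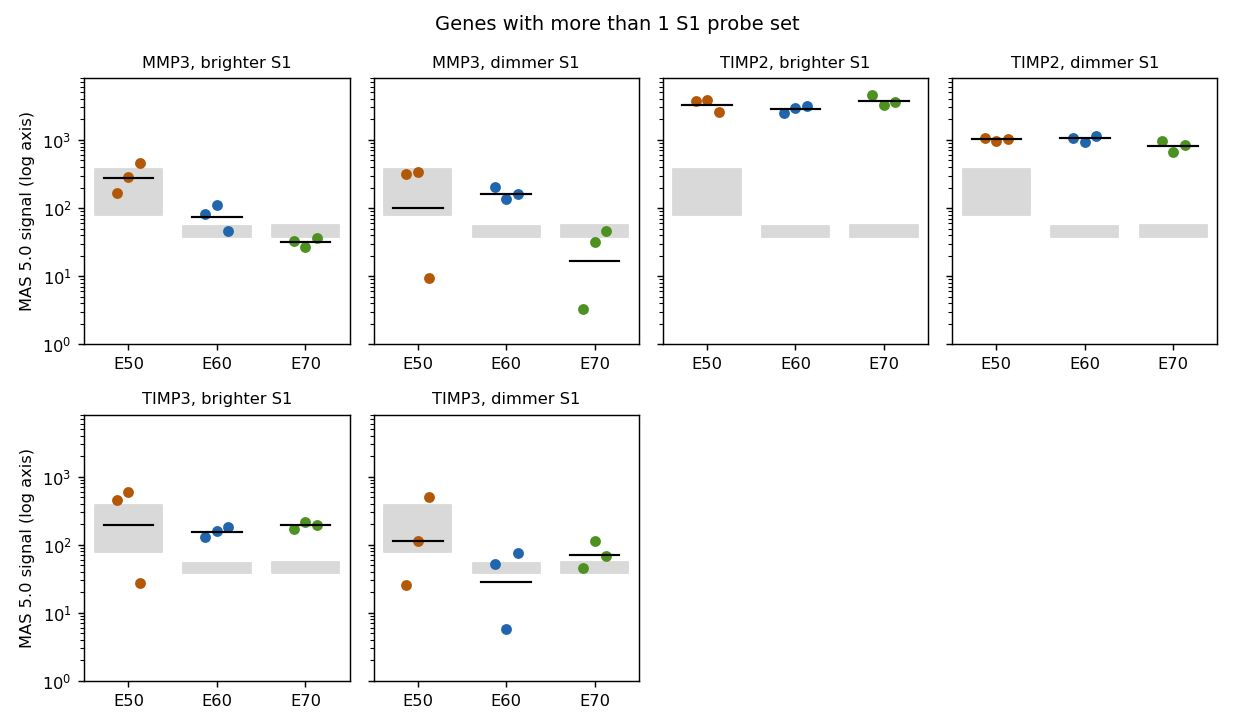
MAS5 signal (log axis) by stage for genes with more than 1 S1 probe set; points are arrays, black lines geometric means of 3 arrays and grey bands the range of array backgrounds. The MMP3 probe sets span 166 to 463 and 9.42 to 334 at E50, and both are in or under the band at E70.

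Enzyme and inhibitor were then compared within each array, where the scaling of the array drops out, using the brightest probe set of each gene. The log2 ratio of MMP2 to TIMP2 was -0.70, -0.73 and 0.42 on the E50 arrays, -1.38, -1.68 and -1.65 at E60, and -2.27, -1.44 and -1.90 at E70. All E50 values were above all later values, which overlapped. The stages differed by an exact permutation test of 280 splits (p = 0.0107, 0.0357 after adjustment over 4 ratios), with means of -0.33 ± 0.66, -1.57 ± 0.17 and -1.87 ± 0.41 (SD, n = 3 each). From E50 to E60 the ratio changed by -1.24 (SE 0.39, exact p = 0.1, the smallest that 3 against 3 arrays can give).

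The ratio of MMP14 to TIMP2 moved the other way. It was -7.42, -3.76 and -6.63 at E50, -2.65, -2.84 and -2.28 at E60, and -3.51, -2.48 and -2.69 at E70, lowest on the E50 arrays. The exact permutation test over the stages gave p = 0.0179 (adjusted 0.0357), with MMP14 below background on 2 of the E50 arrays. MMP9 over TIMP1 and MMP2 over MMP9 overlapped between all stages (exact p = 0.243 and 0.839).

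**Figure D4:**
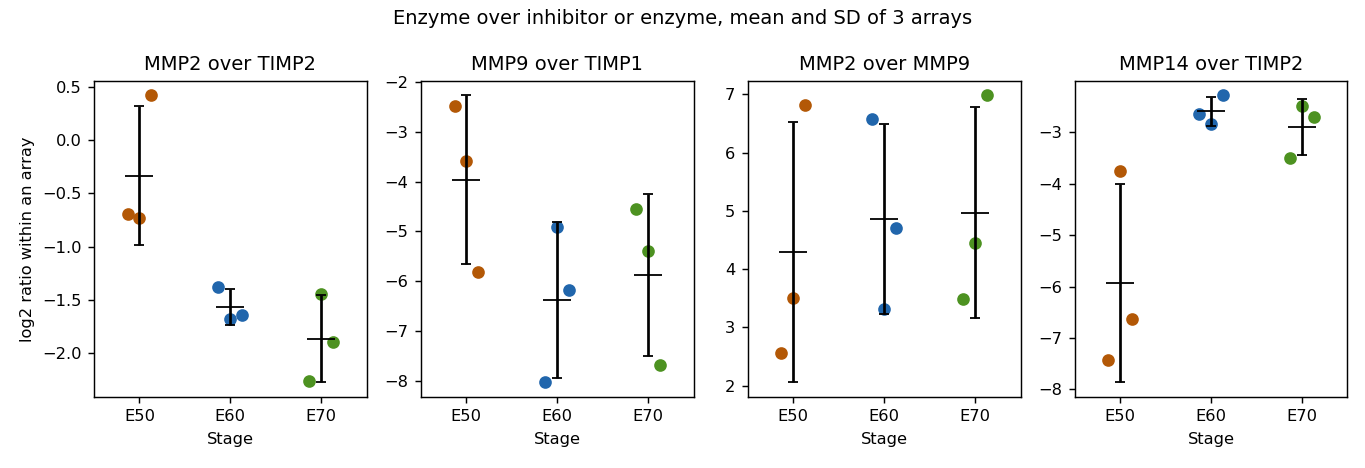
The log2 ratio of the main probe sets of each pair of genes within an array, by stage; points are arrays, with the mean and SD of 3 arrays, and each panel has its own axis. MMP2 over TIMP2 is highest at E50 and MMP14 over TIMP2 lowest there, and the panels with MMP9 overlap.

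Other genes of matrix turnover were read from lists. Of 17 further MMP genes, 2 had a probe set: MMP20 (enamelysin) was near background at all stages, and MMP13 (collagenase-3, an enzyme of bone and cartilage) was detected at E60 alone. MMP13 gave 191, 15.997 and 309.7 at E50, 427, 501 and 541 at E60, and 2.31, 7.96 and 29.96 at E70. All E60 arrays were above background and above all others, and no array of E50 or E70 exceeded it. Taken against the mean background of the E50 arrays, MMP13 was at least 2.51-fold higher at E60 than at E50 (limma adjusted p = 0.239). That mean was 194, and the E50 backgrounds ran from 77.7 to 379, so this is no minimum against each array. Against the mean background of the E70 arrays MMP13 was at least 10.4-fold lower at E70 than at E60 (limma adjusted p = 0.172), again no minimum against each array. The F test over the stages called MMP13 (adjusted p = 0.0385). Fitted on the E60 and E70 arrays alone, the second step had an adjusted p of 0.0554. Its other probe set, an A1, did not follow the rise, at -0.29 from E50 to E60. By RefSeq pig gene order, MMP7, MMP1, MMP3 and MMP13 lie in 1 cluster of 8 MMP genes.

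Of 10 measured activators, receptors and regulators of MMPs, 1 was called higher and 1 lower from E50 to E60, and 1 lower from E60 to E70. The last was THBS2, thrombospondin-2, which is known to clear MMP2 through endocytosis: its mean signal went from 2701 through 4407 to 714 over the stages, and it fell by 2.63 in the second step (limma adjusted p = 0.00344). ITGAV, the integrin alpha-v subunit, rose by 2.14 (adjusted p = 0.0113) in the first step, and TFPI2, a Kunitz-type protease inhibitor, fell by 1.45 (adjusted p = 0.0317). ITGB3, which pairs with ITGAV, was lower at E70 than at E50 (-2.51, adjusted p = 0.0104), as THBS2 and TFPI2 were, and SDC1, a syndecan, and ITGAV were higher; 1 of the 3 other SDC1 probe sets had a value below 0.

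In the plasminogen system, 1 of 7 measured genes was called higher from E50 to E60 and none from E60 to E70. It was SERPINB2, plasminogen activator inhibitor-2, below background on all E50 arrays; it was also higher at E70 than at E50, where SERPINE2, protease nexin-1, was lower (-0.97, limma adjusted p = 0.0359). Of 8 ADAM and ADAMTS proteases, ADAM17, the sheddase of TNF, was called higher in both comparisons with E50, from below background, and 2 of its 3 other probe sets had a value below 0 from E50 to E60. Of 12 cathepsins and cystatins, CTSD was lower from E50 to E60, and CTSS, CTSK and CTSZ were lower at E70 than at E50, CTSK, the collagen-cutting cathepsin of osteoclasts, by 2.15 (adjusted p = 0.0066).

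From E50 to E60, 3 of the 21 measured substrates were called lower, beside 10.6% of all probe sets, and these 3 calls (COL6A2, BGN and SPARC) were lost with median centring, under which 5 substrates were called higher and 0 lower by limma. Of 10 collagen genes, COL6A2 was lower from E50 to E60 and COL5A1 at E70 against E50. COL1A2, of type I collagen, was called by the F test (limma adjusted p = 0.0158), with mean signals of 778, 1253 and 417 in stage order. Of 11 other matrix genes, BGN (biglycan) and SPARC (osteonectin) fell from E50 to E60, by 1.40 (adjusted p = 0.00626) and by 1.34 (adjusted p = 0.00834), although SPARC was 0.49 with quantile normalization. ACAN (aggrecan) fell by 1.97 from E60 to E70 (adjusted p = 0.042), with a value above 0 in its other probe set. BGN, SPARC, ACAN, FN1 (fibronectin) and DCN (decorin) were lower at E70 than at E50; 2 of the 3 other FN1 probe sets had a value above 0 there. Of 9 transcription factors known to bind MMP or TIMP promoters, FOS fell by 3.39 from E60 to E70 (adjusted p = 0.0133), and FOS, EGR1 and FOSL2 were lower at E70 than at E50.

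Over these lists 8 calls were made from E50 to E60, of which 3 held with median centring, and 20 from E50 to E70, of which 13 held with median centring and 10 with only the 2 stages fitted. From E60 to E70, 3 were called, of which 2 held with median centring, the exception being ACAN. Over all probe sets, 7.85% were called higher and 10.6% lower from E50 to E60. The shares were 8.16% and 10.6% from E50 to E70, and 0.0833% and 0.338% from E60 to E70. SDC1, CTSD, COL6A2 and DCN were chosen for naming after their values were seen. The changes called for SERPINB2, SERPINE2, CTSD, CTSS, COL5A1, DCN, SPARC, FOS and FOSL2 were read on A1 probe sets.

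Markers of other cells that make MMPs also moved with stage, and their part in the results above was not tested. The summed signal of 6 osteoclast genes ran from 16626 to 19883, then 13739 to 15925, then 2501 to 4961 in stage order. Of the 6, 1 was called higher from E50 to E60, and 2, ACP5 and ATP6V0D2, were called lower from E60 to E70. The sum of 9 macrophage genes was 5317 to 6708, 2016 to 2164 and 861 to 977 at the 3 stages, with 4 called lower and 1 higher from E50 to E60, and PTPRC below background on all 9 arrays. None of 6 neutrophil genes was called in either step, and NCF1 was below background on all 9 arrays. Mesenchyme was represented by 10 genes with sums of 169735 to 180053, 145368 to 151895 and 84111 to 121379, which the brightest probe sets weigh most. These genes went both ways: 3 were called higher and 3 lower from E50 to E60, and 1 higher and 2 lower from E60 to E70. Epithelium was represented by 8 genes with sums of 9151 to 13218, 13430 to 14381 and 28144 to 31154, and 0 were called in either step. The 6 genes of dental papilla and odontoblasts had sums of 5832 to 6891, 12042 to 13182 and 2773 to 2830. Of these, 1 was called higher and 2 lower from E50 to E60, and 1 lower from E60 to E70. The sum of 10 endothelial genes was 4970 to 5191, 3863 to 4406 and 2394 to 2887, with 2 called lower from E50 to E60. The sum of 9 skeletal muscle genes fell with each stage as well, at 6008 to 6952, 1537 to 1682 and 553 to 620, and 6 of these genes were called lower from E50 to E60. Beside these counts, 7.85% of all probe sets were called higher and 10.6% lower from E50 to E60. From E60 to E70 the shares were 0.0833% and 0.338%.

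Genes whose log2 signals followed a member most closely were sought among 4658 genes, as a description in which the 9 arrays share the gap between E50 and the later stages. For MMP2 these were ADHFE1, NOL12, FTH1, ABLIM3 and GFAP (Pearson r of 0.986 to 0.987), and for MMP14 MFAP3, ANKRD49, CES1, CLU and TAPT1 (0.977 to 0.986). Those for MMP1 were KRR1, RNF146, RBM26, RNF103 and NCOA4, and for TIMP3 SH2D3C, RNF5, RGS14, EP400 and RNF135. TIMP3 had no such gap, with mean log2 signals of 7.61, 7.28 and 7.58 in stage order. Its spread lay mainly among the E50 arrays (457, 590 and 27.6), so its companions were ranked largely by E50 array 3. TIMP1 and TIMP2, which changed less, had looser companions at 9 arrays, led by SAR1A (0.959) and PYGO2 (0.945). Over the 6 E60 and E70 arrays alone, TIMP1 was followed by COL5A3, ZCCHC24, PSMD5, ING3 and CCNC (0.983 to 0.994), and 0 of the 5 companions of any of these 6 members were the same as over 9 arrays.

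**Figure D5:**
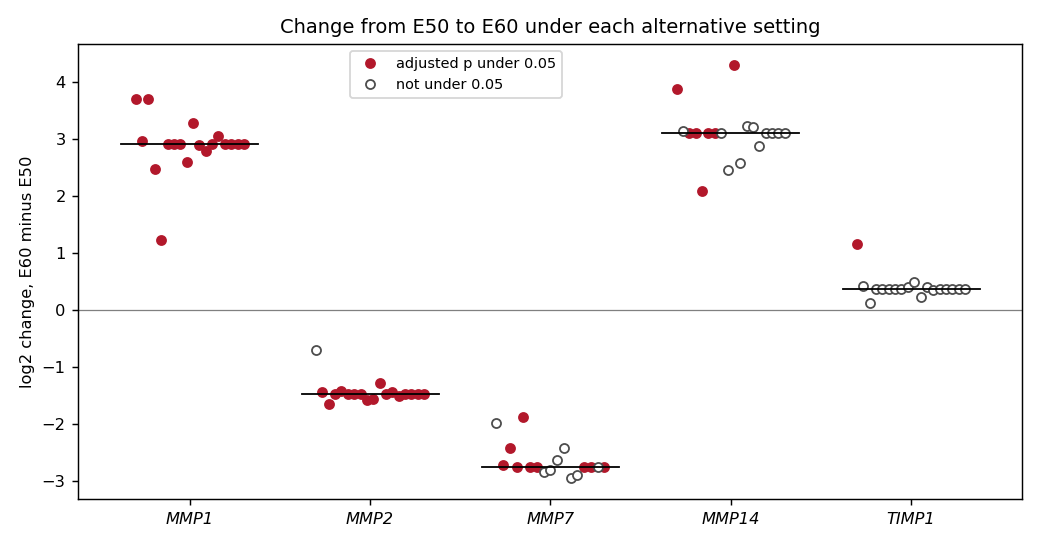
The log2 change from E50 to E60 of 5 genes under each alternative setting (1 point each; filled where the adjusted p is under 0.05), with a black line at the reported value. MMP1 is above 0 and MMP2 and MMP7 are below 0 in all settings, MMP2 ranging from -1.64 to -0.70 and MMP14 from 2.09 to 4.31.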

How the data were processed

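RNA of 9 pooled samples was hybridised, 3 arrays per stage, with stages taken from the sample labels. The authors computed MAS5 signals in GeneSpring, and the deposited table holds these intensity values on a linear scale, with no detection calls. Signals below a floor of 1 were raised to it before the log2 transform. Leaving out array controls, 23999 of 24123 probe sets were tested, and 10069 carried 1 gene symbol. All 10 members' Entrez numbers were found in the RefSeq gene table with the same symbol.

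All probe sets were fitted together with limma 3.58.1 (lmFit, eBayes, prior degrees of freedom 1.47) in R 4.3.3, with Benjamini-Hochberg adjustment over 23999 probe sets and calls at adjusted p under 0.05. Intervals are 95%. Ratios were compared by exact two-sided permutation of stage labels over all splits in SciPy 1.17.1; the smallest possible p was 0.00357 over 3 stages. The fit was tested on simulated data. The number of arrays and the signal over background limit the precision.

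Where a stage had no array above background, a bound was given if above 1: the bright geometric mean divided by the geometric mean of the dim arrays' backgrounds. A gene with several probe sets was represented by its brightest. From each list up to 4 called genes were named by smallest F p, and the 5 genes of highest Pearson r were named for each member above background on all E60 and E70 arrays. Members and lists were chosen with earlier results of these data known. Alternatives were median, 75th percentile and quantile normalization, a floor of 16, an offset of 50, a filter on background, a trended prior, a replicate block, only the stages compared, and leaving out each array. Python 3.11.15, NumPy 2.4.6, pandas 2.3.3 and Matplotlib 3.10.9 were used for tables and figures.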

Additional observations from a re-analysis of the deposited data

How the results depend on the processing

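No called change of a member that the text gives reversed under any alternative. The number of members called from E50 to E60 was 4, and 2 to 5 when 1 array was left out, with 2 (MMP1 and MMP2) without E60 array 1, E60 array 3 or E70 array 3. From E50 to E70 it was 6, and 3 both with only probe sets above background and with only the 2 stages compared. The difference between steps, 0 members, was 1 with median centring, a floor of 16, log2 of signal plus 50 or a trended prior, 2 with only probe sets above background, and 0 to 3 with an array left out. The exact p of MMP14 over TIMP2, 0.0179, was 0.0179 to 0.0714 with an array left out, and that of MMP2 over TIMP2 stayed between 0.00357 and 0.0286. The cause of these shifts was not tested. MMP1 kept its call from E50 to E60 in all 18 alternatives, MMP2 in 17, MMP7 in 9 of 17 and MMP3 in 8 of 17. Some uncalled member values that the text gives reversed. From E50 to E60, the brighter TIMP2 probe set did so with median centring (0.54). The dimmer TIMP2 probe set did so there with quantile normalization (-0.12) and with an array left out (-0.0067 to 0.14). For the brighter TIMP3 S1 probe set it was with median centring (0.45) and with an array left out (-1.74 to 0.47). For the dimmer MMP3 S1 probe set it was with an array left out (-0.99 to 1.58). MMP14 from E60 to E70 reversed with an array left out (-0.016 to 0.34). Values not given above also reversed, among them MMP9 from E60 to E70 in 6 of 17 alternatives. With median centring 83.7% of calls from E50 to E60 over all probe sets were higher, against 42.5%, and 80.6% against 43.4% from E50 to E70.

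Replicate numbers did not pair the arrays: the deviations of same-numbered arrays correlated at -0.02 to 0.03. With a replicate block, 4 members were called over the 3 stages, 3 from E50 to E60, 0 from E60 to E70, 4 from E50 to E70 and 0 for the difference between steps. Signals near or below background limit MMP1 and MMP14 at E50, the MMP3 probe sets at E50 and E70, the brighter MMP3 S1 probe set also at E60, and MMP7, MMP9 and TIMP4. The call of MMP1 in all alternatives therefore gives no size of its change, and it does not show a rise of the transcript.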
